A study of Mus musculus with 4 samples.

Results

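The genes of plasminogen activation and a group of serpins were followed in cultured melanocytes, the pigment cells of the skin, from wild-type mice and mice lacking the aryl hydrocarbon receptor (AhR). The 8 genes were listed by symbol: the activators Plat and Plau, the urokinase receptor Plaur, and the serpins Serpine2, Serpinf1, Serpinb6b, Serpinb9 and Serpinb9b. Of these, 7 had a probe set under their own symbol, with 9 probe sets in all, among 12393 genes named on the arrays. Serpine2, protease nexin 1, was not analysed here. Where a gene had more than 1 probe set, the brighter by mean signal over the arrays stood for it. All 7 genes were bright enough to be among the 7436 tested.

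The wild-type group was 2 female C57BL/6 mice and the knockout group 2 female AhR-deficient mice of the line AhRtm1Bra, in which exon 2 of Ahr is deleted. Epidermal cells of tail skin from each mouse were kept for 6 to 8 weeks in a serum-free medium that favours melanocytes, and the RNA of each culture was amplified and put on its own Affymetrix array. Ages, litters and treatments were not given in the sources used here. With n = 2 in both groups, the number of arrays limits the precision of every value.

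Plasminogen is a circulating proenzyme that tissue-type plasminogen activator (from Plat) and urokinase (from Plau) cut into plasmin, a protease that dissolves fibrin, degrades matrix and activates other proteases and growth factors. Urokinase works at the cell surface when held by its receptor, and serpins trap their target proteases in a covalent, irreversible complex. In skin and in melanoma the system is known for its part in cell migration and matrix turnover. The serpins listed here do different jobs: protease nexin 1 blocks both activators and thrombin, the serpin B proteins are intracellular inhibitors, and the product of Serpinf1, pigment epithelium-derived factor (PEDF), is a secreted serpin that inhibits no known protease and restrains blood vessel growth.

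None of the 7 genes passed the test for a difference between knockout and wild type. In limma with p adjusted by Benjamini-Hochberg across the 7436 genes tested, 0 members rose and 0 fell at an adjusted p under 0.05, and 1, Serpinf1, was lower at an unadjusted p under 0.05. Of all tested genes, 0.161% rose, 0.659% fell and 12.8% were lower at an unadjusted p under 0.05. Of the members, 6 were lower in the knockout arrays and 1, Plat, was higher, and their median log2 difference was -0.53. Over all tested genes the median was 0.0071, and 49.6% were lower. Both knockout arrays lay below both wild-type arrays for 2 members, Serpinf1 and Serpinb9, a count near that of all tested genes, where 26.5% were lower and 28.6% higher without overlap. Against the wild-type mean, the members' median difference was -0.089 for AhR knockout 1 and -0.87 for AhR knockout 2.

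**Figure D1:**
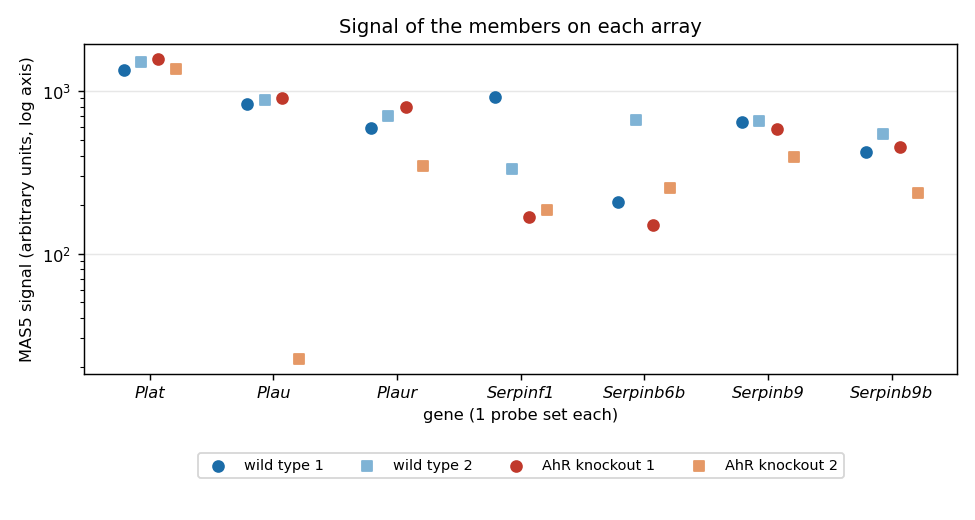
Deposited signal (arbitrary units, log axis) of each member on the 4 arrays, 1 point per array. Plau lies between 836 and 901 on 3 arrays and at 22.6 on AhR knockout 2, and the signals of Plat are nearly level.

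The arrays were not alike in their control ratios or cell type markers. For Gapdh, signal at the 3' end over signal at the 5' end of the transcript was 1.98 to 2.85 on 3 arrays and 11.9 on AhR knockout 2, and for actin it was 6.999 to 8.71 against 27.98. For Ahr, the brighter probe set gave 825 and 874 in the wild-type arrays, then 241 in AhR knockout 1 and 843 in AhR knockout 2. Whether it lies in the deleted exon was not analysed here, so it checks no label. Of 10 melanocyte markers, 9 were measured and tested, without Mlana, and their summed signal was 66177 to 85483 in wild type and 98901 to 123898 in knockout. Of 14 endothelial markers, 10 of 12 tested were lower, and the summed signal was 24070 to 25996 for wild type, 19948 for AhR knockout 1 and 9043 for AhR knockout 2. The endothelial markers Vwf and Erg were near 0, with at most 25.8 on any array. The 10 fibroblast markers summed to 997 to 1154 in wild type and 477 to 628 in knockout. For the 8 mural markers the sums were 3030 to 3951 and 3564 to 4128. Leukocyte markers summed to 1679 to 1848 and 4086 to 6174, and Schwann and glial markers to 6131 to 6369 and 10340 to 11937. The 3 tested leukocyte markers, Lyz2, C1qb and Cd14, were higher, while 7 were below the filter, with Ptprc at most 26.1 on any array. Of 3 tested glial markers, S100b and Cnp were higher and Ngfr was lower, at 737 and 480 against 345 and 233. The keratinocyte markers summed to 471 and 552 in wild type, to 1706 on AhR knockout 1 and to 395 on AhR knockout 2. In such bulk cultures fewer cells of a type and less RNA per cell cannot be told apart.

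Plat, which encodes tissue-type plasminogen activator, an enzyme released by endothelium and also made by melanocytes, differed little between the arrays. Its signal was 1355 and 1506 for wild type against 1575 and 1366 for knockout. The groups overlapped, with the knockout arrays holding the highest and the second lowest value. The log2 difference, knockout minus wild type, was 0.038 ± 0.35 (SE, n = 2 in both groups), with a limma adjusted p of 0.96 and a 95% interval of -0.74 to 0.81. The interval gives the differences compatible with these arrays and is not a limit of detection. The sign of the Plat difference was not stable. It was -0.038 without wild type 1 and -0.064 without AhR knockout 1, against 0.14 without AhR knockout 2.

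Plau, which encodes urokinase, was level on 3 arrays and far lower on the fourth. The brighter probe set gave 836 and 880 for wild type and 901 for AhR knockout 1, against 22.6 for AhR knockout 2. AhR knockout 1 was thus above both wild-type arrays and AhR knockout 2 far below them, so the groups overlapped. The log2 difference of -2.22 ± 1.08 (limma adjusted p = 0.28, 95% interval -4.62 to 0.19) is an average of arrays that do not resemble each other. With AhR knockout 2 left out it was 0.069, with adjusted p = 0.94, and with AhR knockout 1 left out it was -4.50, with adjusted p = 5.33e-22. In both of these fits limma took the error wholly from the trend over genes, so the spread of Plau itself does not enter.

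Among all 7436 tested genes, Plau had the widest gap between the knockout arrays. It was lower by log2 -4.57 in AhR knockout 2 than in AhR knockout 1, rank 1 by size, where the median size over all tested genes was 0.46. At least 8-fold lower signal in AhR knockout 2 was found for 3 genes, and at least 8-fold higher signal for 2. In the wild-type pair the Plau gap was 0.072, where the median size over all tested genes was 0.32. In place in the array, the probe set stood between percentiles 82.0 and 83.6 of all probe sets on the first 3 arrays and at percentile 24.9 on AhR knockout 2.

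The other Plau probe set was dim on every array and, though lowest on AhR knockout 2, did not show a gap of this size. It gave 71.3 and 60.4 for wild type, 66.7 for AhR knockout 1 and 48.2 for AhR knockout 2, between percentiles 38.6 and 45.8, below the median of every array. Its log2 difference was -0.16. The mean of both probe sets gave a difference of -1.19, with a limma adjusted p of 0.33. The 3' to 5' ratios of the control probe sets differed on the same array, as did the summed endothelial markers (9043 against 19948 on AhR knockout 1) and keratinocyte markers (395 against 1706), and their part in the Plau value was not tested. With the Gapdh ratio as a covariate, added after the data were seen, the Plau difference was -0.54, with a limma adjusted p of 0.30.

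**Figure D2:**
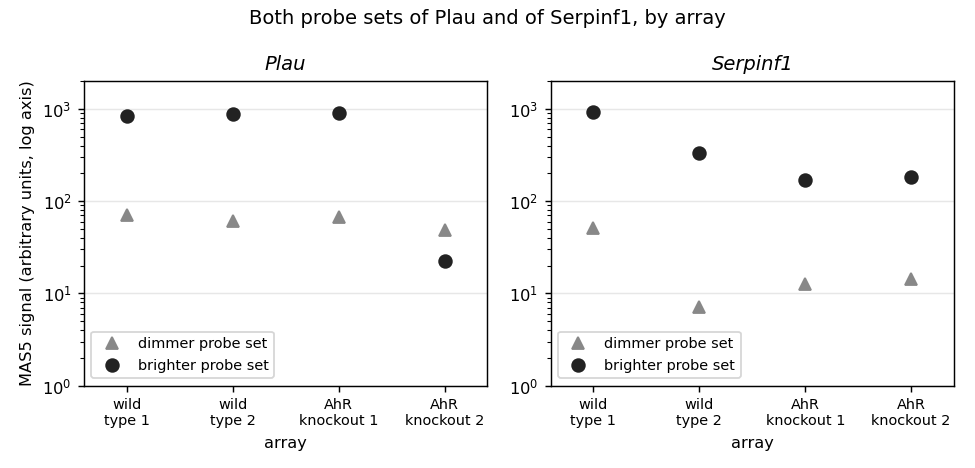
Signal (log axis) of both probe sets of Plau and of Serpinf1 on each array, circles for the brighter and triangles for the dimmer probe set. The brighter Plau probe set lies at 22.6 on AhR knockout 2 and at 836 or more on the others. The brighter Serpinf1 probe set is below 200 on both knockout arrays.

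The genes with the profile most like Plau were Cap1, Hnrnpl and Cxcr4, by the Euclidean distance between log2 values centred over the 4 arrays. Cap1, an actin-regulating protein, lay closest at 0.28 and read 1698, 1503 and 1553 on the first 3 arrays and 65.5 on AhR knockout 2. Its dimmer probe set was lowest on that array too, at 45.9 against 200, 220 and 241. Hnrnpl, a splicing factor, was at 1.22 and read 1242, 934, 1201 and 110. Cxcr4, a chemokine receptor, was at 1.60 and was already lower in AhR knockout 1, at 775 against 2181 and 2745 in wild type. Plau, Cap1 and Hnrnpl were also the 3 genes with the widest gaps between the knockout arrays.

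Plaur encodes the urokinase receptor, a protein anchored in the outer membrane by a lipid tail. The 250 bases before its RefSeq start are shown because they hold the letters TGACTCA, in capitals, the sequence bound by AP-1 factors such as Fos and Jun (chr7:24462233-24462482, plus strand, GRCm38.p6).
Plaur: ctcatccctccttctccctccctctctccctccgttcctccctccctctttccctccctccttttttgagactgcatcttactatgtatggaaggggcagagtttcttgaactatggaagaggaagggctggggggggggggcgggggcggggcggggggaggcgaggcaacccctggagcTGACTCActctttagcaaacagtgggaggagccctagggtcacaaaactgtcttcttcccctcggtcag

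The match lies 63 to 69 bases before the start. Of all 32851 RefSeq windows of this length, 4.46% hold TGACTCA or its reverse complement TGAGTCA, and among the 6 members with a window only Plaur does. The Plaur signal was 591 and 700 for wild type against 802 and 346 for knockout. The knockout arrays therefore held both the highest and the lowest value. The log2 difference was -0.28 ± 0.45, with a limma adjusted p of 0.75 and a 95% interval of -1.27 to 0.72. Without AhR knockout 2 the sign turned, to 0.31. The gap between the knockout arrays was -1.18, larger than for 89.5% of tested genes, and the part of the same control ratios and marker sums in it was not tested. The profile of Pim1, a survival kinase, was closest to it, at a distance of 0.042, with 843, 1016, 1116 and 497.

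Serpinf1 had the smallest p of the 7 genes. Its signal was 914 and 333 for wild type against 168 and 185 for knockout. Both knockout arrays lay below both wild-type arrays and close to each other, while the wild-type arrays were far apart. The log2 difference was -1.57 ± 0.47, a 2.97-fold lower level on the log2(signal + 16) scale, with an unadjusted p of 0.0078, a limma adjusted p of 0.12 and a 95% interval of -2.62 to -0.51. Of all tested genes, 3.52% had a difference of larger size.

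The size of the Serpinf1 difference depended on the wild-type arrays and on the probe set rule. With the mean of both probe sets it was -0.998, with a limma adjusted p of 0.27. Left without wild type 1 it was -0.86 and left without wild type 2 it was -2.28, with adjusted p = 0.52 and 0.11. It was -1.63 without AhR knockout 2 and -1.51 without AhR knockout 1, with adjusted p = 0.0031 and 0.0064. In the fits without a knockout array, the estimated error no longer used the spread of the gene itself, because limma took it wholly from the trend over genes. The wild-type gap of -1.41 was larger than for 99.0% of tested genes. The dimmer Serpinf1 probe set gave 51.6 and 7.16 for wild type against 12.6 and 14.3 for knockout, so only wild type 1 stood out there. Fibroblasts also make PEDF, and their marker Col3a1 fell in these cultures, from 372 and 439 to 95.1 and 50.5 (log2 -2.29, limma adjusted p = 0.039). Of 4 tested fibroblast markers, 2 were lower and 2 higher, and their part in the Serpinf1 value was not tested.

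The bases before the Serpinf1 start are shown with the letters CACATG in capitals, the reverse complement of CATGTG, an E-box of the kind bound by MITF, the regulator of pigment cell genes (chr11:75422624-75422873, minus strand, GRCm38.p6).
Serpinf1: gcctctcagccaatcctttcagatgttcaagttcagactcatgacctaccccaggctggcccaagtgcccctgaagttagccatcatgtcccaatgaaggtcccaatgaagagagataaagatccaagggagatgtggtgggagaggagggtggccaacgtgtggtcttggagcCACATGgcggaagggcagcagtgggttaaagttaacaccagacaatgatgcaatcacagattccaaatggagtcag

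The match lies 71 to 76 bases before the start, and 12.3% of all windows hold it on either strand. Mitf itself read 2771 and 2644 in wild type, 1668 in AhR knockout 1 and 2462 in AhR knockout 2 (log2 -0.41, limma adjusted p = 0.52). The core of the AhR response element, GCGTG or CACGC, was found in 0 of the 6 member windows and in 28.2% of all windows. That says only that these letters are missing from the 250 bases searched. The 6 windows were those of Plaur, Serpine2, Serpinf1, Serpinb6b, Serpinb9 and Serpinb9b.

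The profiles closest to Serpinf1 were farther away than those of Plaur, at 0.55 for Ikzf4, 0.63 for Abca8a and 0.65 for Cck. Abca8a, a lipid transporter, read 1430 and 725 for wild type against 454 and 529 for knockout. Cck, the peptide hormone cholecystokinin, read 1004 and 360 for wild type against 206 and 120 for knockout.

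**Figure D3:**
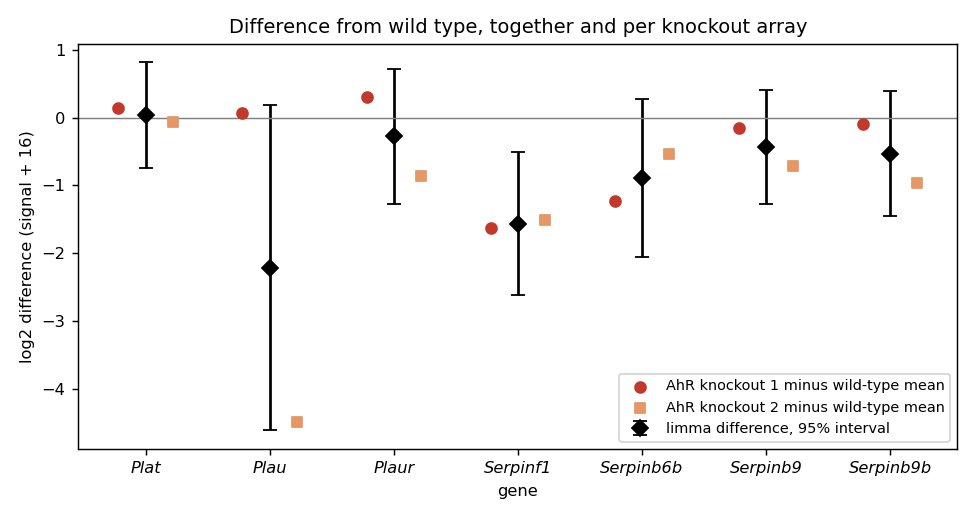
Log2 difference from wild type of each member, as the limma value with its 95% interval (diamonds) and for each knockout array against the wild-type mean (circles and squares). The interval excludes 0 for Serpinf1 alone before adjustment, and the arrays lie on opposite sides of 0 for Plat, Plau and Plaur.

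Serpinb6b, Serpinb9 and Serpinb9b are neighbours on chromosome 13, with 0 other protein-coding genes between them in the RefSeq table, in a group of 16 serpin B genes. Serpinb9 encodes a protein that blocks granzyme B, the protease by which killer lymphocytes induce death, and it protects the cells that make it. The bases before the starts of the paralogues Serpinb9 and Serpinb9b are shown with the longest run of letters shared by both, 13 bases, in capitals (Serpinb9 chr13:33004291-33004540 and Serpinb9b chr13:33027164-33027413, both plus strand, GRCm38.p6).
Serpinb9: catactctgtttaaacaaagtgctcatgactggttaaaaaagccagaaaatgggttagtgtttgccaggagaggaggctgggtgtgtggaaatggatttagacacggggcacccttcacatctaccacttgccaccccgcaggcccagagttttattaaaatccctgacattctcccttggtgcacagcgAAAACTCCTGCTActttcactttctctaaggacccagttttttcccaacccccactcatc
Serpinb9b: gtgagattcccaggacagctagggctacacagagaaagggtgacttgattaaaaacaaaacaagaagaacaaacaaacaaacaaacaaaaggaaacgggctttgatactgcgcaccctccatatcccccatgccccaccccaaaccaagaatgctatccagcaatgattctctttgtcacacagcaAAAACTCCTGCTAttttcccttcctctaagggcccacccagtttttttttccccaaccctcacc

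In a global alignment, these sequences were identical at 56.2% of 274 columns. Against the window of Serpinb6b, the share was 42.2% for Serpinb9 and 39.5% for Serpinb9b. Windows of unrelated genes were not aligned, and any link of the shared letters to the signals was not tested. The Serpinb9 signal was 642 and 658 for wild type against 581 and 391 for knockout. The groups did not overlap, with AhR knockout 1 just below wild type and AhR knockout 2 further down. The log2 difference was -0.43 ± 0.38, with a limma adjusted p of 0.53, and it was -0.16 without AhR knockout 2.

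The Serpinb9b signal was 423 and 542 for wild type against 450 and 236 for knockout. AhR knockout 1 lay between the wild-type arrays and AhR knockout 2 below both. Its log2 difference was -0.53 ± 0.41, with a limma adjusted p of 0.48, and it was -0.089 without AhR knockout 2. Whether the probe sets of these paralogues also bind transcripts of the other Serpinb9 genes was not checked.

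Serpinb6b, a mouse relative of the intracellular protease inhibitor Serpinb6a, had another profile than its neighbours. Its signal was 208 and 666 for wild type against 150 and 253 for knockout. Wild type 2 stood above the rest, and the groups overlapped. The log2 difference was -0.89 ± 0.53, with a limma adjusted p of 0.36. Without wild type 2 it was -0.086, without wild type 1 it was -1.69, and without AhR knockout 2 it was -1.24, with adjusted p = 0.036. The gap of 1.61 between the wild-type arrays was larger than for 99.6% of tested genes. Serpinb6b was higher in wild type 2 and Serpinf1 in wild type 1. Which of the 2 arrays departs cannot be told from such a gap for either gene. The closest profiles were those of Zfp638, at 0.078, with 71.2, 261, 53.5 and 93.6, and Pik3ca, a catalytic subunit of phosphoinositide kinase, at 0.13, with 239, 711, 150 and 272.

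Across the 7 genes, 5 were lower in AhR knockout 2 than in AhR knockout 1, as were 52.7% of all tested genes. A deficit of at least 0.5 on the log2 scale was found for 4, namely Plau, Plaur, Serpinb9 and Serpinb9b, and for 24.8% of all tested genes. Serpinf1 and Serpinb6b were the 2 genes with higher signal in AhR knockout 2 than in AhR knockout 1, by 0.13 and 0.70.

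Other genes of the plasminogen system did not move one way. Of 22 listed, 19 were measured and 8 tested, with 3 lower and 5 higher, and 0 passed the limma test in either direction, with 1 lower at an unadjusted p under 0.05. Their median log2 difference was 0.023. The gene with the low unadjusted p was Thbs1, thrombospondin, a matrix protein that activates latent TGF-beta. Its signal was 2876 and 2595 for wild type against 815 and 209 for knockout (log2 -2.67 ± 0.55, limma adjusted p = 0.053). The difference was -1.73 without AhR knockout 2, and Thbs1 was called lower in 7 of 16 alternative analyses. Anxa2 and S100a10, which form a surface complex that binds plasminogen and tissue-type activator, differed by -0.15 and 0.49, with adjusted p = 0.79 and 0.40. S100a10 read 5774 and 6331 for wild type against 6562 and 11053 for knockout, and its difference was 0.12 without AhR knockout 2. The plasminogen receptor Plgrkt was level, at 332 and 351 against 309 and 355. The clearance receptor Lrp1 and its chaperone Lrpap1 differed by 0.18 and 0.54, and neither passed.

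Plasminogen itself and 10 more genes of that list were below the signal filter, so they were not tested. Plg read 14.8 and 3.72 for wild type against 9.38 and 18.5 for knockout. Serpinb2, Serpinf2, Serpina5, Serpini1, Mrc2, Hrg, Klkb1, F12, Vtn and A2m were the others.

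Tested genes whose products plasmin or the activators cleave were lower on average more often than higher. Of 9 tested of 21 listed, 7 had a lower mean and 2 a higher one, where 49.6% of all tested genes were lower. The groups did not overlap for 6 lower and 1 higher, against 26.5% and 28.6% of all tested genes. The median of the 9 was -0.43. That median was -0.23 without AhR knockout 2, -0.27 with no filter or with the Gapdh covariate, and -1.17 with the mean of probe sets. By limma 1 fell, Tgfb2, a growth factor held in a latent complex: its signal was 435 and 877 for wild type, 129 for AhR knockout 1 and 23.3 for AhR knockout 2 (log2 -3.07 ± 0.59, adjusted p = 0.049). The difference was -2.13 without AhR knockout 2. The call was lost in 6 of 15 alternative analyses, with limma adjusted p up to 0.20. Most that kept it were the replicate block, the Gapdh covariate and the fits without an array. There limma took the error wholly or mostly from the trend over genes, so the spread of Tgfb2 itself hardly enters. Mmp3, stromelysin, read 349 and 280 for wild type against 114 and 102 for knockout (log2 -1.41, adjusted p = 0.082). Pdgfc, a growth factor released from its latent form by tissue-type activator, differed by -1.08 with adjusted p = 0.19. Fibronectin, from Fn1, differed by -0.29. Of 11 more genes below the filter, Lama5 and Hgf were higher without overlap. Mmp13, Bdnf and Pdgfd were lower without overlap, and the rest overlapped.

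The thrombin and tissue factor list gathers genes around a protease that serpins of this family also block. All 6 of its tested genes were lower on average, as were 49.6% of all tested genes. They were F2r, Tfpi, Tfpi2, Thbd, Procr and Pros1, a mixed group with F2r as its only tested thrombin receptor of the F2r family. For 4 of 6 the groups did not overlap, against 26.5% of all tested genes lower without overlap. The groups overlapped for Tfpi and Thbd. The 6 tested of 13 listed had a median of -0.83, or -0.41 over all measured genes with no filter. The limma test called 0 of them, and 3 had an unadjusted p under 0.05. It called 1 with quantile normalization, with a pseudocount of 64 or without wild type 1, and 2 at an adjusted p under 0.10. Without either knockout array, or with the Gapdh covariate, it called 3. Tfpi2, an inhibitor of plasmin and other serine proteases in matrix, read 9266 and 12690 for wild type against 4406 and 2471 for knockout (log2 -1.71 ± 0.35, adjusted p = 0.053), with a difference of -1.30 without AhR knockout 2. F2r, the thrombin receptor, read 10237 and 14621 for wild type against 4660 and 4808 for knockout (log2 -1.37 ± 0.29, adjusted p = 0.059). Procr, the endothelial protein C receptor, differed by -0.96 with adjusted p = 0.16. The signal of F3, tissue factor, was below the filter and higher in knockout, at 46.7 and 32.0 against 148 and 128. Also below the filter, F2, F2rl2 and F7 were higher without overlap, F10 was lower without overlap, and F2rl3 overlapped. F2rl2 read 54.6 and 65.7 for wild type against 93.0 and 94.0 for knockout. The 12 tested endothelial markers had a median of -1.26, with their sums given above, and their part in these values was not tested.

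**Figure D4:**
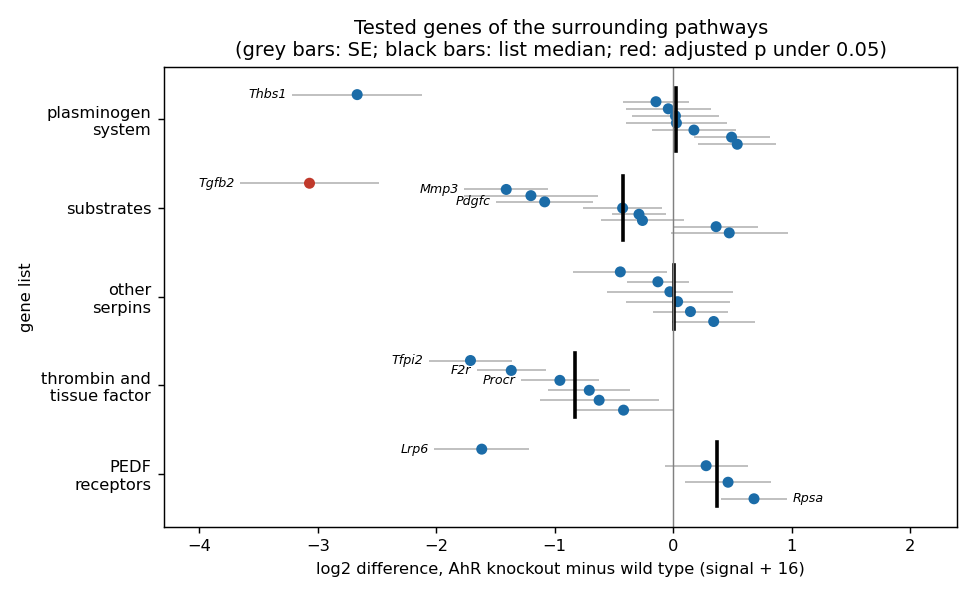
Log2 difference, knockout minus wild type, of each tested gene in 5 lists, with its SE (grey) and the list median (black bar). Names mark genes with an unadjusted p under 0.05. Tgfb2 alone, in red, passed the adjusted test, and all 6 tested genes of the thrombin and tissue factor list lie below 0.

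The remaining tested serpins lay on both sides of 0. Of 46 listed, 21 were measured and 6 tested, with 3 lower and 3 higher and a median of 0.0049. The limma test called 0, and 0 had an unadjusted p under 0.05. Serpinb1b and Serpinb1a, both of the chromosome 13 group, differed by -0.45 and 0.34, and the groups did not overlap for Serpinb1a. The 15 genes below the filter were not tested and went both ways. Serpinb7 read 99.3 and 114 for wild type against 21.2 and 38.5 for knockout, and Serpinb5 read 22.2 and 27.7 against 58.5 and 50.4. Serpinb6a, of the same neighbourhood as the member genes, read 9495 and 9479 for wild type against 8139 and 9244 for knockout. Serpinh1, the collagen chaperone, differed by 0.15. Serpinb9g, another member of the chromosome 13 group, read 454 and 1362 for wild type against 1053 and 567 for knockout, with both groups spread widely. The 13 genes of the granzyme list, which also holds the perforin gene Prf1, were all below the filter. The highest signal on any array was 69.8, for Prf1. Gzmb, the gene of the Serpinb9 target granzyme B, read at most 11.1.

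Of the candidate receptors for PEDF, 4 of 5 were tested, with 1 lower and 3 higher and a median of 0.37. The limma test called 0, while at an unadjusted p under 0.05 there was 1 in each direction. Lrp6, a Wnt co-receptor, read 957 and 1442 for wild type against 302 and 459 for knockout (log2 -1.62 ± 0.40, adjusted p = 0.078). It was not called in 12 of 16 alternative analyses. The other 4 were the replicate block, the Gapdh covariate and the fits without a knockout array. In these, limma took the error wholly from the trend over genes, so the spread of Lrp6 itself does not enter. Rpsa, the laminin receptor and a ribosomal protein, read 10362 and 11306 for wild type against 13970 and 21620 for knockout (log2 0.68, adjusted p = 0.21), with a difference of 0.37 without AhR knockout 2. Pnpla2, the fat lipase, differed by 0.46 with adjusted p = 0.49.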

How the data were processed

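The values the authors deposited are linear signal intensity from 1-colour Affymetrix arrays, made with MAS5, per the submitters' processing notes. No version is recorded. After trimming, the mean over 96% of probe sets lay between 500.2 and 500.3 on every array, so a shift shared by most transcripts would be divided out. Of 22690 probe sets, 20380 had 1 gene symbol in the platform annotation, 691 had several, 1555 had none and 64 were controls. RefSeq (GRCm38.p6) gave a current symbol, matched by gene identifier, for 20351. For each gene the probe set highest in mean log2(signal + 16) was used, which for all 7 members was also that with the highest mean signal. The top 60% of genes by that mean were tested, with a lowest mean signal of 76.4. Folds of dim genes are understated by the pseudocount of 16.

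Samples were grouped by title. Groups were compared with limma 3.58.1 (lmFit, eBayes with trend) in R 4.3.3, two-sided, with Benjamini-Hochberg adjustment over all tested genes and a threshold of 0.05. Intervals are 95% intervals from the moderated fit. An exact permutation of 2 against 2 arrays cannot give a small p, so p-values rest on the model. It was also run on simulated data with the same normal error for all genes and both groups. In the real arrays the median gap was 0.46 between knockout and 0.32 between wild-type arrays. The simulated run therefore cannot vouch for these p-values. Titles number the samples 1 and 2 in each group and do not say what a number shares, so the fit has no block.

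The members and the lists were chosen with earlier results of these data known. The lists were the plasminogen system, substrates, other serpins, thrombin and tissue factor, granzymes, PEDF receptors and 7 sets of cell type markers. All members were named, with up to 6 tested genes of each list by smallest p, up to 3 of each marker set, and the 3 genes nearest in profile. F3 and Mitf were added after their values were seen. Promoter windows came from RefSeq, GRCm38.p6. The letters GCGTG were set in the design, while TGACTCA and CATGTG were chosen after the windows were seen. Alignments used a match score of 2, a mismatch of -1, and gap costs of -4 to open and -0.5 to extend. Python 3.11.15 and matplotlib 3.10.9 made the figures. Alternatives changed the scaling, pseudocount, filter, probe set rule, variance model, threshold, block and arrays used.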

Additional observations from a re-analysis of the deposited data

How the results depend on the processing

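Both the counts over all 7436 tested genes and those of the 7 members depended on the analysis. Against 12 rises and 49 falls by limma, quantile normalization gave 6 and 15, equal medians 20 rises, a pseudocount of 64 gave 22 and 75, no filter 0 and 1 (limma unadjusted p under 0.05: 842 higher and 1024 lower), the top 40% filter 2 and 2, every probe set 7 and 22, an adjusted p under 0.10 gave 69 and 252, and leaving out an array 5 to 518 rises and 22 to 805 falls. No member was called under any of these but leaving out an array. The members called lower were 0 to 2 without an array, 2 with the replicate block and 2 with the Gapdh ratio as a covariate, which was chosen after seeing the data. These fits (the block, the covariate and those without a knockout array) leave 1 residual degree of freedom and take the error from the trend over genes, so the disagreement of the knockout arrays on Plau does not enter. A lone array in a group is assumed to vary like the other group. With the replicate block 431 genes rose and 940 fell, Plau was at -2.22 (adjusted p = 1.62e-08) and Serpinf1 at -1.57 (adjusted p = 1.401e-04). With the covariate 497 rose and 1074 fell, with Serpinf1 at -1.53, Serpinb6b at -1.24 and Plaur turned to 0.14. Over the 4 arrays left out in turn, the log2 difference ran from -0.064 to 0.14 for Plat, -4.50 to 0.069 for Plau, -0.87 to 0.31 for Plaur, -2.28 to -0.86 for Serpinf1 and -1.69 to -0.086 for Serpinb6b. Serpinb9 and Serpinb9b kept their sign and passed in none of 16 alternatives. The median of the other serpins was -0.028 with the mean of probe sets and -0.20 to 0.40 without an array, and that of the plasminogen system -0.097 (without wild type 1) to 0.14. With the replicate block 3 genes of the thrombin and tissue factor list and 4 of the substrates were called lower. The cause of these changes was not tested. Differences of wild type 1 and 2 and of AhR knockout 1 and 2 correlated at r = 0.36 over 7436 genes, which are not independent. The titles do not say what a number shares, so the samples were not treated as pairs.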

Other observations

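Between the knockout arrays, Cap1 and Hnrnpl followed Plau in width of gap, at -4.27 and -3.27 (log2, AhR knockout 2 minus AhR knockout 1). The genes with the widest gaps in the other direction were Luc7l3 at 3.18 and Ssb at 3.12, both of RNA-binding proteins. At least 4-fold lower signal in AhR knockout 2 was found for 35 tested genes and at least 4-fold higher signal for 42.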
